A study of Mus musculus with 6 samples.

Results

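The potassium channel genes described here are the rows of the deposited table whose gene name is Kcn followed by letters and a number. Of 92 such genes among the 55401 genes of the table, 61 had at least 1 read in any library, and 36 of these had a mean over 3 normalized counts. A normalized count is the authors' read count of a gene divided by 1 factor per library, so that a value of 1 is about 1 read. Just inside that limit lay Kcnj3 (mean 3.05) and Kcnk6 (3.52), and just outside it Kcnmb2 (2.598) and Kcnc4 (2.44). RNA was sequenced from C2C12 myotubes, which are fused, differentiated cells of a single immortalised mouse myoblast line kept in medium with 2% horse serum. One group of 3 cultures received 100 pmol of SENP7 siRNA for 3 days, SENP7 being a protease that takes the modifier SUMO off proteins, and the other group of 3 cultures received the GL2 control siRNA, directed against firefly luciferase, in the same way. The comparison asks which transcripts depend on SENP7 in differentiated muscle cells. The series design calls the 3 samples per condition biological replicates, without saying how the cultures were separated.

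Potassium channels let potassium leave the cell and so set the resting potential and end the action potential. Voltage-gated channels (Kv) open on depolarisation, inward rectifiers (Kir) hold the resting potential, tandem-pore channels carry a background leak, and the SK and IK channels open when intracellular calcium rises. In human myoblasts, currents of KCNH1 and KCNJ2 hyperpolarise the cell before it fuses, and in rodents SK3, the product of Kcnn3, appears in embryonic and denervated muscle.

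Potassium channel genes moved in both directions in SENP7 siRNA myotubes. Of 28 potassium channel genes tested, 2 rose and 9 fell, and 17 did not pass the test. The tandem-pore channel gene Kcnk13 rose 4.22-fold and the SK3 gene Kcnn3 1.76-fold. In the same classes, the tandem-pore genes Kcnk2 and Kcnk5 and the calcium-activated genes Kcnn1 and Kcnn4 fell. Kcnf1, Kcnc2, Kcnab3 and Kcnj12 fell as well. The test was limma on log2(normalized count + 1) over the 14668 genes that reached 10 normalized counts in 3 or more libraries, two-sided, with Benjamini-Hochberg adjustment and a threshold of 0.05. By that rule 20.9% of all tested genes changed (10.2% higher and 10.7% lower), against 39.3% of the tested potassium channel genes (7.14% higher and 32.1% lower). Counts by class, marker list or gene list below are to be read beside the shares of all tested genes. The median log2 fold change of the 28 genes was -0.14, and that of all tested genes was 0.00. In all 11 changed genes the 3 SENP7 siRNA values lay apart from the 3 control values, as they did in 15 of the 28 genes and in 39.6% of all tested genes. Kcnh3 met the limit on counts through the SENP7 siRNA libraries alone.

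**Figure D1:**
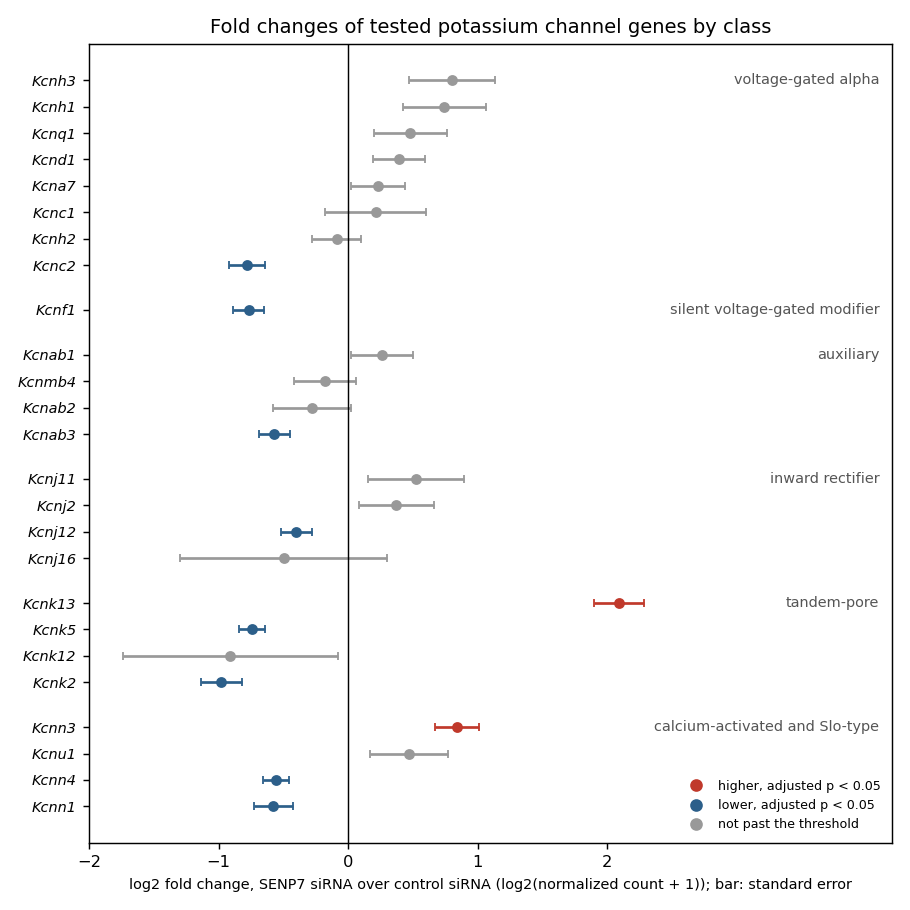
Difference between SENP7 siRNA and control siRNA as a log2 fold change (x axis, on the log2(normalized count + 1) scale) for 25 of the 28 tested potassium channel genes, grouped by class. Points are limma estimates from 3 libraries per group, bars are standard errors, and colours mark genes past an adjusted p of 0.05; 2 points are higher (Kcnk13 at 2.09 and Kcnn3 at 0.84) and 8 are lower, down to Kcnk2 at -0.98.

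The libraries held between 25223218 and 30865945 reads assigned to genes. Senp7 itself averaged 300.3 ± 40.2 normalized counts in SENP7 siRNA myotubes and 607.2 ± 46.9 in control myotubes (SD, n = 3 each), so that a part of the target transcript was left. Myotube marker transcripts (Myog, Ckm, Acta1, Myh3, Mymk, Des, Tnnt3 and Actn2) summed to between 573447 and 655415 normalized counts in SENP7 siRNA libraries and between 527425 and 544863 in control libraries, and 3 of these 8 genes rose and 0 fell. Of 6 neuronal markers, Rbfox3, Snap25 and Syt1 had no read in any library, 2 were tested, and Tubb3 fell. Stmn2, the other tested marker, did not pass (limma adjusted p = 0.617), with means of 2663 in SENP7 siRNA and 2550 in control myotubes. The neuronal markers summed to between 3035 and 3720 counts in SENP7 siRNA libraries and between 3699 and 4646 in control libraries. Of 6 markers of undifferentiated or cycling myoblasts, Pax7 rose, with sums of 5860 to 7132 in SENP7 siRNA libraries and 6126 to 8069 in control libraries. Among tested markers of other cell types, 1 of 2 rose for Schwann cells and glia (S100b) and 1 of 1 for endothelium (Tek). For leukocytes 1 of 2 rose (Itgam), for smooth muscle 1 of 3 (Acta2), and 0 adipocyte markers could be tested. Tek and Itgam met the limit on counts through the SENP7 siRNA libraries alone. Tek averaged 14.25 in SENP7 siRNA and 5.445 in control myotubes, and Itgam 14.82 and 6.87. S100b needed those libraries too, with control values of 3.02, 3.34 and 10.7. A gain of these cell types cannot be read from markers that entered the test in this way. The part of the culture's make-up in the changes below was not tested, and in bulk RNA fewer cells of a type and less RNA per cell cannot be told apart. On the first principal component, with 64.4% of the variance, control replicate 3 lay at 19.1, the other control libraries at 36.7 and 33.3, and the SENP7 siRNA libraries between -32.5 and -27.7.

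Levels were compared between genes as reads per kilobase of exon length, scaled to library depth in the usual way (RPKM). Among the highest levels in SENP7 siRNA myotubes were those of Kcnj2 (7.94 ± 1.6 RPKM), Kcnj12 (7.24 ± 0.29), Kcnn3 (4.70 ± 0.67), Kcnf1 (4.08 ± 0.33) and Kcnk13 (2.97 ± 0.20). Among the highest in control myotubes were Kcnj12 (9.48 ± 1.5 RPKM), Kcnf1 (6.88 ± 0.95), Kcnj2 (6.50 ± 3.5), Kcnn4 (4.09 ± 0.47), Kcnk5 (3.22 ± 0.11) and Kcnn3 (2.63 ± 0.73). Kcnk13 moved to rank 7 of 61 in SENP7 siRNA myotubes, against rank 14 in control myotubes. The values of Kcnj2 and Kcnj12 overlapped among the SENP7 siRNA libraries, and those of Kcnf1 and Kcnj2 overlapped among the control libraries, so these neighbours did not differ beyond their spread.

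**Figure D2:**
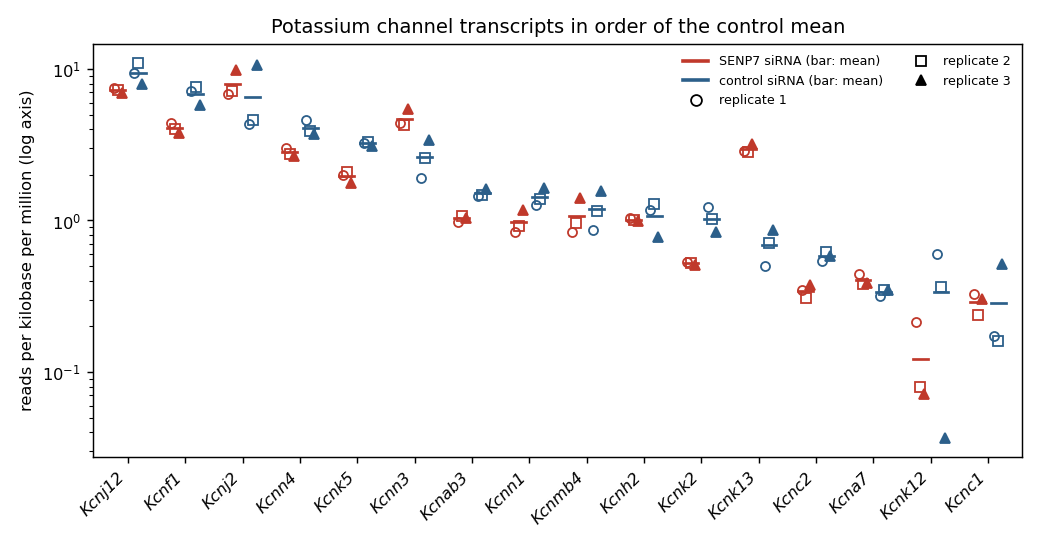
RPKM (y axis, log scale) of 16 potassium channel transcripts, in the order of their control means, in each library. Short bars are group means (n = 3) and symbols give the replicate number; Kcnk13 averages 2.97 in SENP7 siRNA myotubes against 0.694 in control myotubes.

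The family's summed RPKM was 67.4, 66.7 and 72.8 in the SENP7 siRNA libraries and 70.2, 76.2 and 80.5 in the control libraries, and these ranges overlap. Voltage-gated alpha subunits held between 45.5% and 47.3% of that sum in SENP7 siRNA libraries and between 46.1% and 47.0% in control libraries. Inward rectifiers held 22.0% to 24.1% in SENP7 siRNA libraries and 20.1% to 24.0% in control libraries. The shares of 2 other classes did not overlap between the groups. Silent Kv modifier subunits held 5.26% to 6.64% in SENP7 siRNA libraries and 7.25% to 10.2% in control libraries. Calcium-activated and Slo-type genes held 12.2% to 13.2% in SENP7 siRNA libraries and 10.5% to 11.3% in control libraries.

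Among the tandem-pore genes, the leading transcript was Kcnk13 in SENP7 siRNA myotubes and Kcnk5 in control myotubes. Kcnk13 encodes a halothane-inhibited leak channel known from microglia (chromosome 12, 99964499 to 100062682, plus strand, GRCm38). Its normalized counts were 244, 240.7 and 269 in SENP7 siRNA libraries and 43.3, 62.3 and 73.0 in control libraries. Every SENP7 siRNA value was more than 3 times the highest control value, with a log2 fold change of 2.09 ± 0.19 (SE, limma adjusted p = 0.000174). Kcnk2 encodes a leak channel gated by stretch and lipids (chromosome 1, 189207930 to 189402273, minus strand). Its counts were 71.9, 70.6 and 68.2 in SENP7 siRNA libraries and 168.3, 141.3 and 112.8 in control libraries. The SENP7 siRNA values were close together and all below the lowest control value (log2 fold change -0.98 ± 0.16, limma adjusted p = 0.00367), and exons of A430027H14Rik on the opposite strand cover 12.2% of its exon length. Kcnk5, an alkaline-activated leak channel gene known from kidney (chromosome 14, 20140057 to 20181809, minus strand), had 186.3, 192.6 and 163.9 counts in SENP7 siRNA libraries and 310.4, 314.9 and 285 in control libraries. The groups lay far apart for their spread (log2 fold change -0.74 ± 0.10, limma adjusted p = 0.00148).

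Kcnk13 made up 53.1%, 52.2% and 58.3% of the summed RPKM of Kcnk13, Kcnk2 and Kcnk5 in SENP7 siRNA libraries and 10%, 14.2% and 18% in control libraries. The share of Kcnk5 lay between 32.4% and 38.2% in SENP7 siRNA libraries and between 64.4% and 65.6% in control libraries. The class as a whole had 5.76, 5.73 and 5.71 RPKM in SENP7 siRNA libraries and 5.83, 5.61 and 5.10 RPKM in control libraries, which overlap. Kcnk12, a close relative of Kcnk13 that carries no current when expressed alone, had 11.5, 4.28 and 3.79 counts in SENP7 siRNA libraries and 33.3, 20.03 and 1.95 in control libraries. Its groups overlapped through control replicate 3 and it did not pass (limma adjusted p = 0.48, against 0.00745 without that library). Kcnk6 and Kcnk7 were below the limit on counts. Kcnk6 had 4 reads over the 3 SENP7 siRNA libraries and 17 over the 3 control libraries (ratio 0.22, exact 95% counting interval 0.0539 to 0.675).

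The 250 bases before the annotated starts are shown for 1 gene that rose and 1 that fell in each of the tandem-pore and calcium-activated classes. They were read from RefSeq promoters of GRCm38.p6, 5′ to 3′ on the gene's strand. Capitals mark E-boxes, the letters CANNTG on either strand, of which CAGCTG is the form preferred by myogenic factors.
Kcnk13 (chr12:99964249-99964498, plus strand): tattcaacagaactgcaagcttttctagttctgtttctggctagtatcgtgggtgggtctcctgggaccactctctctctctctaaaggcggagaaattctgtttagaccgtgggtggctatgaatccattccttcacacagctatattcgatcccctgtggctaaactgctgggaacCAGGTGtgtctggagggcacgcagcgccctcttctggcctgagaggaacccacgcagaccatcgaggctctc
Kcnk2 (chr1:189402274-189402523, minus strand): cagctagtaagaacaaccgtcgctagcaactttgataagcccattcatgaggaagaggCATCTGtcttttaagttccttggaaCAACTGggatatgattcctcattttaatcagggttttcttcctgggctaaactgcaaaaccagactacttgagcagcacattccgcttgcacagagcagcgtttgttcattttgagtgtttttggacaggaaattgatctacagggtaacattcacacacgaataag
Kcnn3 (chr3:89519914-89520163, plus strand): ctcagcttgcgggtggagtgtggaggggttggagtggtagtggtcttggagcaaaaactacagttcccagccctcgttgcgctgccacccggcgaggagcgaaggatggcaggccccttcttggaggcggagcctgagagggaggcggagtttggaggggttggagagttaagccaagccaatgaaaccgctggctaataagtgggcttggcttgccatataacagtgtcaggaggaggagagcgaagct
Kcnn1 (chr8:70863259-70863508, minus strand): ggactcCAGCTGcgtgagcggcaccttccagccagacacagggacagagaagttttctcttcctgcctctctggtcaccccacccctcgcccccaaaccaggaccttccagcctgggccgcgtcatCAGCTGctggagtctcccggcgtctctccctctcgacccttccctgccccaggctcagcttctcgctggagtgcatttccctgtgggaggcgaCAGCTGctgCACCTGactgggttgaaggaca
Kcnk13 has 1 such match, Kcnk2 has 2, Kcnn3 has 0 and Kcnn1 has 4, of which 3 are CAGCTG. Kcnk5 and Kcnn4, which fell as well and are not shown, have 1 CANNTG and 0 CAGCTG each. Among 27025 genes, with 1 start each, 66.1% have a CANNTG in this window and 12.7% have a CAGCTG. Of the 19 tested potassium channel genes with a RefSeq promoter, 13 have a CANNTG and 4 a CAGCTG. Of the 9 changed genes among these, 7 have a CANNTG and 2 a CAGCTG. A match is a run of letters and was not tested as a binding site.

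Of 4 calcium-activated and Slo-type genes tested, 1 rose and 2 fell. Kcnn3, the SK3 gene (chromosome 3, 89520164 to 89675132, plus strand), had 1251, 1211 and 1544 counts in SENP7 siRNA libraries and 559.4, 756.5 and 954.2 in control libraries. The groups did not overlap, and replicate 3 was the highest in each (log2 fold change 0.84 ± 0.17, limma adjusted p = 0.00999, but 0.101 when no filter was set on low counts). Kcnn4, the IK channel gene known from red blood cells and lymphocytes (chromosome 7, 24370263 to 24386690, plus strand), had 423.2, 383 and 370.4 counts in SENP7 siRNA libraries and 660.2, 563 and 514.6 in control libraries. All SENP7 siRNA values were below all control values (log2 fold change -0.56 ± 0.10, limma adjusted p = 0.00646). Kcnn1, the SK1 gene known mainly from brain (chromosome 8, 70842049 to 70863258, minus strand), had 104.7, 115.5 and 145.9 counts in SENP7 siRNA libraries and 161.3, 179.1 and 204.3 in control libraries. It passed with a log2 fold change of -0.58 ± 0.15 (limma adjusted p = 0.028), and the call was lost without SENP7 siRNA replicate 1, SENP7 siRNA replicate 2 or control replicate 2 (limma adjusted p = 0.109, 0.0978 and 0.0939).

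Kcnn3 made up 53.1%, 53.7% and 58.6% of the summed RPKM of Kcnn1, Kcnn3 and Kcnn4 in SENP7 siRNA libraries and 24.6%, 32.7% and 38.6% in control libraries. Kcnn4 held 36.7%, 34.7% and 28.7% in SENP7 siRNA libraries and 59.3%, 49.7% and 42.6% in control libraries, so that the leading transcript of the 3 was Kcnn3 in every SENP7 siRNA library and Kcnn4 in every control library. Kcnma1, which encodes the large-conductance BK channel, had 5 reads over the SENP7 siRNA libraries and 0 over the control libraries, where a count of 0 allows up to 3 reads. Kcnu1, a Slo-type channel gene known from sperm, had 14.2, 19.3 and 27.5 counts in SENP7 siRNA libraries and 12.1, 13.4 and 16.5 in control libraries and did not pass (limma adjusted p = 0.298).

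**Figure D3:**
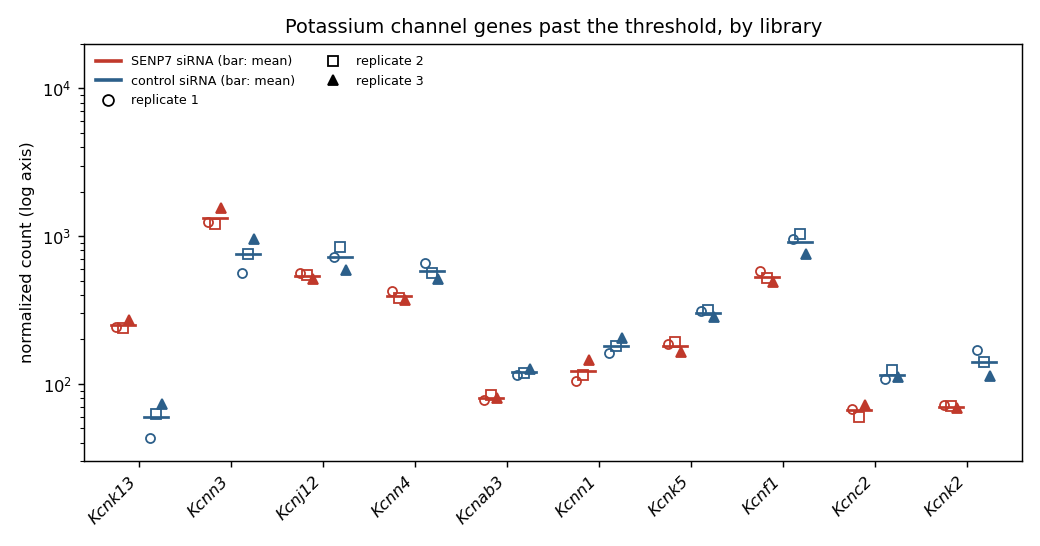
Normalized counts (y axis, log scale) of 10 of the 11 potassium channel genes past the threshold, in order of their log2 fold change, in each library. Short bars are group means (n = 3) and symbols give the replicate number; Kcnk13 and Kcnn3 lie higher in SENP7 siRNA libraries, the other 8 lie lower, and in none do the groups overlap.

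Of 11 voltage-gated alpha subunits tested, 0 rose and 2 fell, beside 10.2% and 10.7% of all tested genes. Kcnc2, a Kv3 gene of fast-firing neurons (chromosome 10, 112271121 to 112467024, plus strand), had 67.4, 59.9 and 72 counts in SENP7 siRNA libraries and 107.8, 124.6 and 111.9 in control libraries. Its groups were well apart, with a log2 fold change of -0.78 ± 0.14 (limma adjusted p = 0.00511).

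Kcnf1 encodes a silent subunit that forms no channel alone and modifies the currents of other Kv subunits (chromosome 12, 17172100 to 17176888, minus strand). Its counts were 581.2, 523.1 and 489.8 in SENP7 siRNA libraries and 959.5, 1027 and 752.9 in control libraries. All 3 SENP7 siRNA values were below the lowest control value, which was replicate 3 (log2 fold change -0.77 ± 0.12, limma adjusted p = 0.00258). Of the other silent subunits, Kcng2, Kcns2 and Kcns3 had a mean under 3, and Kcng1, Kcng3, Kcng4, Kcns1, Kcnv1 and Kcnv2 had no read.

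Further Kv genes missed the threshold. Kcnh1, the ether-a-go-go gene tied to fusion in human myoblasts, had 39.9, 50.3 and 76.7 counts in SENP7 siRNA libraries and 28.2, 23.4 and 48.6 in control libraries, and control replicate 3 fell inside the SENP7 siRNA range (log2 fold change 0.74 ± 0.32, limma adjusted p = 0.137). Kcnh2, the ERG channel gene of cardiac repolarisation, had 137.5, 132.7 and 128.8 counts in SENP7 siRNA libraries and 158.2, 175.8 and 101.2 in control libraries. Those groups overlapped. Kcnh3 had the largest log2 fold change among the genes that missed the threshold on the higher side (0.80 ± 0.33, limma adjusted p = 0.124), with 10.7, 16.1 and 12.3 counts in SENP7 siRNA libraries and 5.04, 6.68 and 9.73 in control libraries. Kcnd1, Kcnq1 and Kcna7 had log2 fold changes of 0.39, 0.48 and 0.23 and did not pass. Kcnh7 and Kcnc4 were below the limit on counts, and both passed on the higher side when no limit was set. In the authors' deposited DESeq2 comparison neither passed (adjusted p = 0.2733 and 0.3997). Kcnh7 had 28 reads in SENP7 siRNA libraries and 8 in control libraries (ratio 3.28, exact 95% counting interval 1.46 to 8.32), and Kcnc4 had 13 in SENP7 siRNA libraries and 2 in control libraries (ratio 6.09, interval 1.38 to 55.6).

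Of 4 auxiliary subunits tested, Kcnab3 fell and 0 rose. Kcnab3 encodes a cytoplasmic beta subunit of Kv1 channels (chromosome 11, 69326258 to 69333042, plus strand). Its counts were 77.2, 83.4 and 80.5 in SENP7 siRNA libraries and 114.9, 119 and 125.5 in control libraries, tight within each group (log2 fold change -0.57 ± 0.12, limma adjusted p = 0.0116). The call was narrowly lost without SENP7 siRNA replicate 1 (limma adjusted p = 0.0564), and exons of Kcnab3os on the opposite strand cover 5.13% of its exon length. The Kv1 alpha genes it could join were sparse, with Kcna7 at 26.6, 22.5 and 22.7 counts in SENP7 siRNA libraries and 19.2, 21.1 and 20.4 in control libraries, Kcna3 and Kcna4 at means of at most 3, and Kcna1, Kcna2, Kcna5, Kcna6 and Kcna10 without a read. Kcnab1 (log2 fold change 0.26) and Kcnab2 (-0.28) did not pass. Kcnmb4, a beta subunit of the BK channel, had 76.3, 86.7 and 126 counts in SENP7 siRNA libraries and 80.6, 106.8 and 140.1 in control libraries, although reads of its pore gene Kcnma1 were nearly absent. The groups overlapped, and 31.5% of the Kcnmb4 exon length lies opposite exons of Kcnmb4os1 and Kcnmb4os2. Kcne4, Kcnip2 and Kcnip3 had means between 5.70 and 6.77 counts over the 6 libraries and were not tested.

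Among the inward rectifiers, 1 of 4 tested genes fell and 0 rose. Kcnj12 encodes a strong inward rectifier of muscle (chromosome 11, 61022564 to 61071131, plus strand). Its counts were 566.1, 543.5 and 515.3 in SENP7 siRNA libraries and 722.7, 851.1 and 593.4 in control libraries. The groups were apart by a small gap at control replicate 3 (log2 fold change -0.40 ± 0.12, limma adjusted p = 0.0453). The call was lost under quantile normalization (limma adjusted p = 0.0515) and without any 1 library other than control replicate 3 (0.0939 to 0.15). Kcnj2, the other strong rectifier of muscle, had 1021, 1062 and 1438 counts in SENP7 siRNA libraries and 661.2, 699.8 and 1552 in control libraries. Control replicate 3 was the highest of all 6 values, and the gene did not pass (log2 fold change 0.37 ± 0.29, limma adjusted p = 0.404).

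Kcnj16 lies 38196 bases from Kcnj2 on chromosome 11, and its counts were 3.55, 21.4 and 42.6 in SENP7 siRNA libraries and 16.1, 12.2 and 54.5 in control libraries. As with Kcnj2, replicate 3 was the highest library of each group. Kcnj2 made up 47.7%, 49.7% and 58.5% of the summed RPKM of Kcnj2 and Kcnj12 in SENP7 siRNA libraries and 31.6%, 29.4% and 57.0% in control libraries. Kcnj15 and Kcnj3 were below the limit on counts, and Kcnj3 passed on the higher side when no limit was set. In the authors' deposited DESeq2 comparison Kcnj3 did not pass (adjusted p = 0.2139). Kcnj3, a G-protein-gated subunit of the heart, had 17 reads in SENP7 siRNA libraries and 2 in control libraries (ratio 7.96, exact 95% counting interval 1.89 to 71.0), and antisense exons cover 31.1% of its exon length.

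The libraries numbered 3 held the extreme value of both groups in many of these genes. Replicate 3 was the highest of both groups in 9 of the 28 tested genes and the lowest of both in 8, which compares with 20.6% and 23.6% of all tested genes. Without control replicate 3, 5 potassium channel genes rose and 10 fell, and the same counts were found without both libraries numbered 3. All 11 changed genes were among them, with Kcnj2, Kcnc1 and Kcnh1 added on the higher side and Kcnk12 on the lower side. The calls grew over all tested genes as well. With all 6 libraries 1492 of the 14668 tested genes rose and 1570 fell. Without control replicate 3, 2289 rose and 2413 fell, and without both libraries numbered 3, 2389 rose and 2560 fell. Kcnj2 then had a log2 fold change of 0.77 ± 0.13 (limma adjusted p = 0.00265) without control replicate 3 and 0.61 ± 0.07 (limma adjusted p = 3.15e-05) without both. Kcnc1, a Kv3 gene, had 84.3, 61.0 and 76.7 counts in SENP7 siRNA libraries and 45.4, 42.3 and 132.3 in control libraries, with a log2 fold change of 0.21 ± 0.39 over all 6 libraries and 0.73 ± 0.19 without control replicate 3 (limma adjusted p = 0.744 and 0.0142). What sets control replicate 3 apart was not tested.

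**Figure D4:**
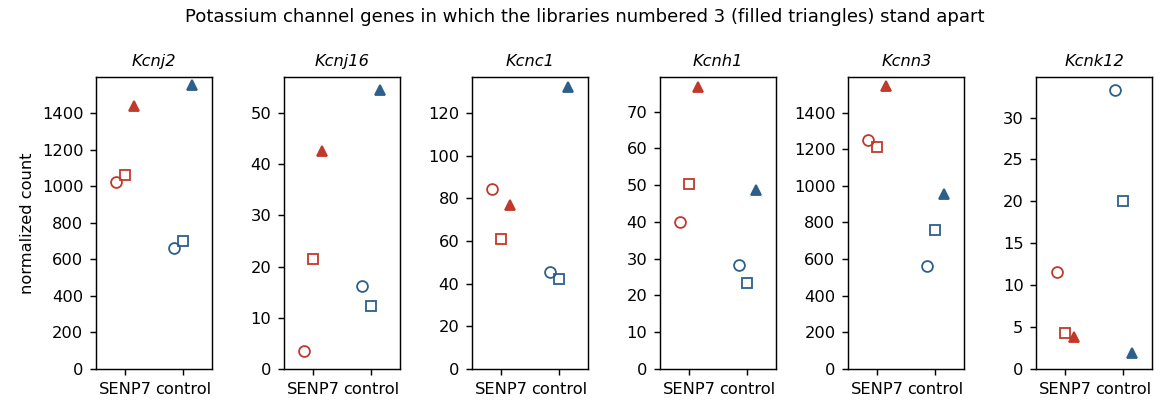
Normalized counts (y axis, linear from 0, own scale per panel) in the 3 SENP7 siRNA and 3 control libraries for 6 potassium channel genes chosen after their values were seen. Filled triangles are the libraries numbered 3; in Kcnj2, Kcnj16 and Kcnc1 the control triangle (1552, 54.5 and 132.3) is the highest of the 6 values, and in Kcnk12 it is the lowest (1.95).

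Genes whose products join or regulate potassium channels were counted beside the channels. Of 14 tested members of a list of 22 such genes, 6 rose (among them Abcc8, Abcc9, Akap9, Amigo1 and Dpp6) and 2 fell (Dlg4 and Sgk1), with a median log2 fold change of 0.35. Over all tested genes 10.2% rose and 10.7% fell, with a median of 0.00. Without 1 library, between 3 and 8 of them rose and between 0 and 2 fell. Abcc8 and Abcc9 encode the sulphonylurea receptors that surround the Kcnj11 pore in KATP channels, which close when ATP is plentiful. Abcc8 had 25.7, 24.6 and 48.3 counts in SENP7 siRNA libraries and 11.1, 10.01 and 11.7 in control libraries (log2 fold change 1.44 ± 0.30, limma adjusted p = 0.010). Abcc9, the muscle form, had 122.4, 130.5 and 107 counts in SENP7 siRNA libraries and 53.4, 83.4 and 91.4 in control libraries. It passed narrowly (log2 fold change 0.68 ± 0.21, limma adjusted p = 0.0453) and lost the call under quantile normalization and without any 1 library other than control replicate 3, with adjusted p up to 0.148. Kcnj11 itself had 29.3, 12.8 and 26.5 counts in SENP7 siRNA libraries and 11.1, 21.1 and 13.6 in control libraries, and these overlapped.

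Amigo1 encodes a membrane protein that joins Kv channels. It had 746.2, 787.4 and 816.6 counts in SENP7 siRNA libraries and 535.2, 595.2 and 538.9 in control libraries, with no overlap (log2 fold change 0.49 ± 0.07, limma adjusted p = 0.00219). Dpp6, an auxiliary protein of Kv4 channels, had 15.1, 18.2 and 21.8 counts in SENP7 siRNA libraries and 4.03, 5.56 and 6.81 in control libraries (log2 fold change 1.59 ± 0.31, limma adjusted p = 0.00768), and it met the limit on counts through the SENP7 siRNA libraries alone. The Kv4 pore gene Kcnd1 had 34.6, 46 and 36.9 counts in SENP7 siRNA libraries and 32.3, 25.6 and 31.1 in control libraries and did not pass (limma adjusted p = 0.212). Of 32 tested sodium, calcium, chloride and HCN channel genes, 7 rose and 3 fell, with a median log2 fold change of 0.06, beside the same 10.2%, 10.7% and 0.00 over all tested genes.

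**Figure D5:**
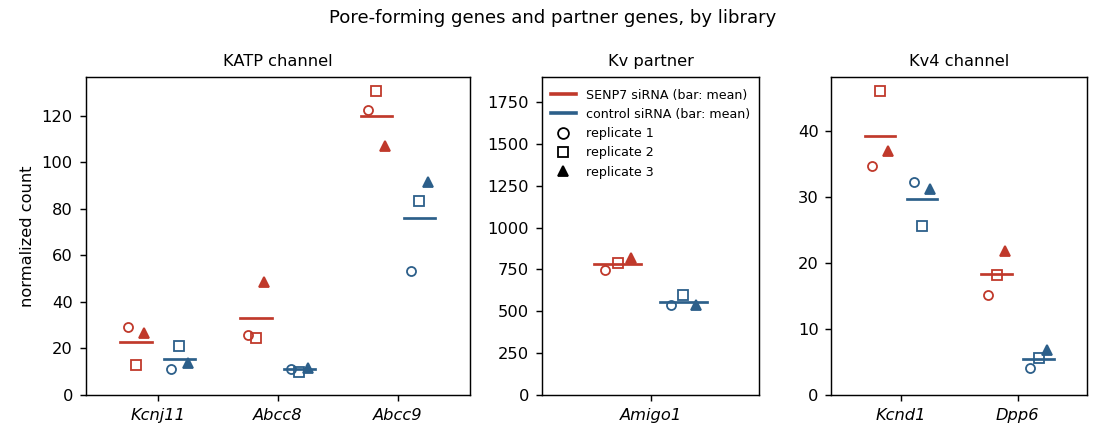
Normalized counts (y axis, linear from 0, own scale per panel) of the pore-forming genes Kcnj11 and Kcnd1 and of 4 partner genes, in each library. Short bars are group means (n = 3). Abcc8, Abcc9, Amigo1 and Dpp6 lie higher in all SENP7 siRNA libraries than in any control library. The same holds for Kcnd1, which did not pass the test, while the values of Kcnj11 overlap.

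Of the 22 nearest tested genes on either side of the 11 changed channel genes, 2 passed the test, against 20.9% of all tested genes. They were Atp6v1c2 beside Kcnf1 and Ccdc124 beside Kcnn1, both lower like the channel gene. The neighbours of Kcnk13 were Tdp1, 9280 bases away with a log2 fold change of -0.01, and Psmc1 with -0.09.

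The other 25 potassium channel genes with a read had means of at most 3 normalized counts, and 31 genes had no read in any library. Those without a read included Kcnb2, Kcnd2 and Kcnd3, the Kv7 gene Kcnq5, the inward rectifiers Kcnj1, Kcnj5, Kcnj6 and Kcnj10, the SK2 gene Kcnn2, and the leak channel genes Kcnk1, Kcnk3, Kcnk9, Kcnk15, Kcnk16 and Kcnk18. The muscle KATP relative Kcnj8 had 1 read in SENP7 siRNA libraries and 0 in control libraries. In the authors' deposited table, 11 potassium channel genes had an adjusted p under 0.05, and they were the same 11 that passed here.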

How the data were processed

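Polyadenylated RNA of 6 C2C12 myotube cultures was sequenced in paired reads from a directional kit, per the labels' protocols. The submitters' processing notes name STAR 2.6.1d, featureCounts 1.6.4, Trim Galore 0.6.4, DESeq2, bcl2fastq and the build GRCm38.p6. How strand was set in counting, and which annotation was used, is not given in the sources used here. Library columns hold the authors' normalized signal, read counts divided by 1 size factor per library, and within 0.1 read 100% of them came out as whole reads once divided by the value of 1 read in that library, so that reads were recovered. The authors' deposited log2 fold changes, their standard errors and Wald scores, and p-values were used for comparison only.

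limma 3.58.1 (R 4.3.3; trend and robust empirical Bayes) was fitted to log2(normalized count + 1) with the group as the sole term, because the table holds normalized values. Fold changes on that scale understate the change of low genes. RPKM used the deposited exon lengths and the recovered totals. Counting intervals are exact (Clopper-Pearson, 95%), and like the limit of 3 reads for a count of 0 they cover counting error only. Alternatives were edgeR 4.0.16 and DESeq2 1.42.0 on the recovered reads, the replicate number as a block, other scalings, filters and pseudocounts, and each library left out; leaving out both libraries numbered 3 was added after the data were seen. The procedure was run on simulated counts drawn for each library independently. Such counts hold no shift shared by the genes of 1 library, so the run does not cover the libraries numbered 3. The potassium channel genes, partner list and markers were chosen with earlier results of these data known. Named genes are Senp7, channel genes past the threshold, those of highest level, other channel genes where their subfamily is described, and partner genes past the threshold. Without that strand setting, sense and antisense reads of overlapping genes cannot be told apart. Some genes are not reported here by name, though counts and sums include them. Coordinates are from the file and GENCODE M21, which matched 56 of the 61 gene identifiers.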

Additional observations from a re-analysis of the deposited data

How the results depend on the processing

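Kcnk13, Kcnk5, Kcnf1, Kcnk2, Kcnc2 and Kcnn4 kept their call and direction in all 15 alternatives. With 1 library left out, between 2 and 5 potassium channel genes rose and between 5 and 10 fell, and over all tested genes between 805 and 2289 rose and between 754 and 2413 fell. Partner genes that rose then numbered 3 to 8 and those that fell 0 to 2, and other ion channel genes that rose numbered 5 to 10 and those that fell 2 to 4. Without both libraries numbered 3, 5 potassium channel genes, 8 partner genes and 2389 of all tested genes rose, and 2560 of all tested genes fell. With no filter on low counts 4 potassium channel genes rose, Kcnc4, Kcnh7 and Kcnj3 being added and Kcnn3 lost, and 5 other ion channel genes fell. In that setting 27493 genes were tested, of which 1573 rose and 1528 fell. The log2 fold change crossed 0 with 1 library left out for Kcnc1 (-0.08 to 0.73, below 0 without control replicate 1 or 2), Kcnh2 (-0.32 to 0.07, above 0 without control replicate 2), Kcnj16 (-1.20 to 0.43, above 0 without SENP7 siRNA replicate 1 or control replicate 3) and Kcnmb4 (-0.38 to 0.02, above 0 without control replicate 3). The cause was not tested. edgeR on the recovered reads called 1472 genes higher and 1580 lower. With the replicate number as a block, 4 potassium channel genes rose, Kcnh1 being among those added, and 2052 of all tested genes rose and 2123 fell. Same-numbered libraries had correlations of their deviations of 0.13, 0.0624 and 0.25, and not every library correlated best with its own number, so the numbers were not taken as pairs. Depth limits what can be said of the genes below the limit on counts.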
